A study of Rattus norvegicus with 21 samples.

Results

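The step from 6 h to 24 h of FGF1 was examined in NBTII-FGFR1, a rat bladder carcinoma line transfected with FGF receptor 1. It was read from 4 of the 21 arrays of the series, 2 at 24 h and 2 at 6 h, chosen by their labels alone, and no array of untreated cells entered the difference. In the series, NBTII-FGFR1 and the parental NBTII line, an epithelial carcinoma line, were given FGF1 and total RNA was measured on Affymetrix expression arrays at up to 48 h, with the purpose of profiling genes during an epithelial to mesenchymal transition. The groups used here were NBTII-FGFR1 and NBTII, each at 2, 6, 24 and 48 h of FGF1 at 20 ng/ml with heparin at 50 µl/ml (the unit as the labels write it), 2 arrays a group and 16 in all. The sources used here do not say whether NBTII-FGFR1 is 1 clone or a pool. No array after 0 h lacks FGF1, and cultures at 24 h had also been kept for longer than those at 6 h, so FGF1, heparin, time in culture and cell density cannot be told apart. The labels do not say whether the 2 arrays of a group came from separate cultures. The p-values therefore rest on how far these samples vary, which may be technical, and the number of arrays limits the precision. In RNA from whole cultures, fewer cells of a kind and less RNA per cell cannot be told apart.

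FGF1 binds FGF receptors at the cell surface with heparin or heparan sulfate as a cofactor, and the activated receptor kinase signals largely through RAS and the ERK kinases. Early transcription factors answer first, genes for proteases, adhesion proteins and cell cycle proteins follow, and feedback inhibitors such as the Sprouty proteins damp the signal. In epithelial cells a sustained signal of this kind can loosen junctions and scatter the cells, for which NBTII is a classical model.

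The arrays were alike in their gross features. Array medians were 6.13 to 6.15 on the log2 scale in the 4 arrays. The replicates correlated across probe sets at r = 0.995 (24 h) and 0.992 (6 h), against 0.977 to 0.984 between the times. The 6 h pair was the looser, with a standard deviation of replicate 1 minus replicate 2 of 0.285, against 0.235 at 24 h. Its replicate 1 correlated with the 6 h arrays of NBTII at 0.991 and 0.992, as closely as with its own replicate. The Fgfr1 probe set, a check of the labels, read 4.56 and 6.14 at 24 h and 5.82 and 5.37 at 6 h in NBTII-FGFR1, against 3.86 and 4.05 at 24 h and 3.63 and 3.58 at 6 h in NBTII. Every NBTII-FGFR1 array of these times was thus above every NBTII array. The times overlapped (-0.25 ± 0.38, adjusted p = 0.71 by limma), although without 24 h replicate 2 Fgfr1 was called lower (-1.04). Its other probe set was not called. In NBTII-FGFR1 the probe set read higher at 2 h (7.58 and 6.67) and at 48 h (7.44 and 7.2) than in any array of this step. Of 10 epithelial markers measured, 8 or 9 lay above each array's median and Krt19 lay under its lower quartile. Their log2 levels summed to 89.0 and 85.7 at 24 h and to 98.7 and 99.8 at 6 h. Of 25 leukocyte markers, 1 lay above the median in each array and limma called 0, while 5 were lower at an unadjusted p under 0.05. Of 13 endothelial markers, 2 lay above the median and Flt1 and Plvap were called lower, although both calls were lost in 8 of the 16 fits that leave out 1 array. Leaving out replicate 1 or replicate 2 of a group outside a comparison gave the same result for that comparison. The 16 fits are thus not 16 separate checks, here and in the tallies below. Levels below were not shown to exceed background where they fall under the array's lower quartile (4.38 in both 24 h arrays, 4.53 and 4.47 at 6 h), because no detection calls were used, and a difference from such a level is a lower bound.

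Between 6 h and 24 h, NBTII-FGFR1 cells raised genes of DNA replication, mitosis, ribosome assembly and sterol synthesis, and lowered proteases, keratins, cell junction proteins and some growth factors. By limma, with Benjamini-Hochberg adjustment over 15866 probe sets and a threshold of 0.05, 2192 probe sets (13.8%) changed, 1367 of them higher and 825 lower at 24 h. The falls reached further: 206 fell and 192 rose by over 1 on the log2 scale, and 32 fell and 12 rose by over 2. The count was 919 without 24 h replicate 1, 1259 without 24 h replicate 2, 1087 without 6 h replicate 2 and 1312 with the spread taken from the compared arrays only. Over genes with 1 probe set each, 1051 of 10411 (10.1%) were higher and 566 (5.44%) lower, with a median difference of -0.03. These shares are the background for the lists below. The lists were chosen with earlier results of these data known, so their shares and ranks describe the step and are not an independent test. Where a listed gene had several probe sets, the brightest on average was read, and ± marks the standard error of a log2 difference between 2 arrays at 24 h and 2 at 6 h.

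**Figure D1:**
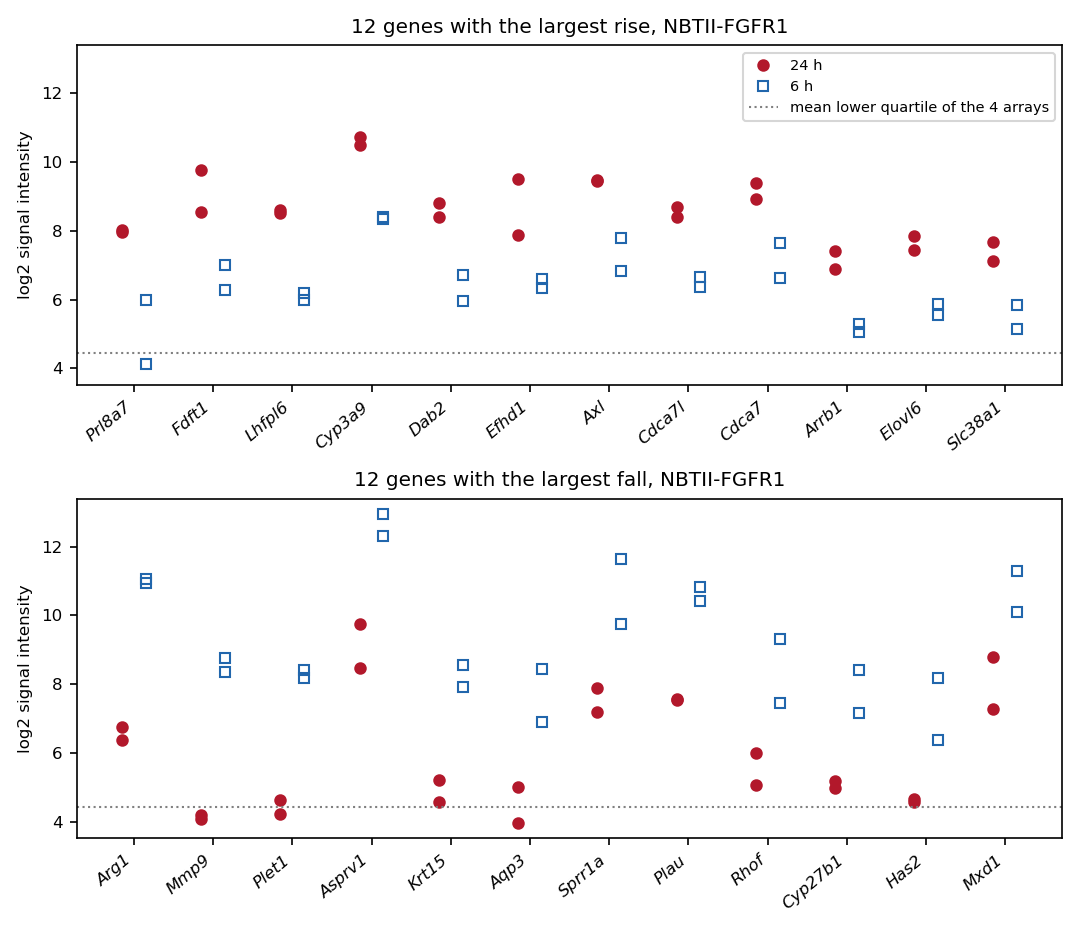
Log2 signal intensity in the 2 arrays of 24 h (filled circles) and the 2 of 6 h (open squares) of NBTII-FGFR1, for the 12 genes with the largest rise (top) and the 12 with the largest fall (bottom). Each point is 1 array and the dotted line is the mean lower quartile of the 4 arrays. In all 24 genes the arrays of the 2 times do not overlap, as the choice of genes requires, and several falling genes lie near the dotted line at 24 h.

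The steepest falls were in Arg1 and Mmp9. Arg1, the arginase that splits arginine into ornithine and urea, had log2 levels of 6.39 and 6.75 at 24 h and 10.94 and 11.05 at 6 h. That is a difference of -4.43 ± 0.31, or 21.5-fold (adjusted p = 5.5e-06), far wider than the gap between replicates. Mmp9, a secreted gelatinase that cuts basement membrane collagen, had 4.07 and 4.20 at 24 h and 8.75 and 8.35 at 6 h. Both 24 h arrays were under their lower quartile, so its difference of -4.42 ± 0.30 (adjusted p = 5.4e-06) is a lower bound. The second Mmp9 probe set was also called lower.

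Other proteases of the cell surface and matrix fell with it. Of 34 measured genes of pericellular proteolysis, 7 (20.6%) fell and 0 rose, with a median of -0.23. The count was 4 without 24 h replicate 1. Plau, the urokinase that activates plasminogen, had 8.46 and 8.45 at 24 h and 11.21 and 11.45 at 6 h, a difference of -2.87 ± 0.26 (adjusted p = 5.1e-05). Its other probe set gave -3.06 ± 0.25. Mmp12, the macrophage metalloelastase, had 4.92 and 5.14 at 24 h and 6.99 and 8.28 at 6 h (-2.60 ± 0.32, adjusted p = 0.00031). Mmp14, the membrane-bound collagenase that activates other metalloproteinases, had 8.0 and 7.81 at 24 h and 9.38 and 9.82 at 6 h (-1.70 ± 0.21, adjusted p = 0.00036). The 24 h arrays of all these genes lay below both 6 h arrays. Plat, the tissue-type plasminogen activator, fell by 1.53 ± 0.39 (adjusted p = 0.019), but its adjusted p was 0.13 without 24 h replicate 1 and 0.14 without 6 h replicate 1. Timp1, an inhibitor of metalloproteinases, was called lower too (-0.76), as was the cathepsin gene Ctss (-0.35).

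The stromelysins and collagenase 3 were not called. Mmp3 had log2 levels of 10.31 and 10.49 at 24 h and 10.34 and 10.20 at 6 h (0.13 ± 0.46, adjusted p = 0.88). Mmp10 had 9.08 and 11.44 at 24 h and 9.65 and 10.72 at 6 h (0.07 ± 0.68, adjusted p = 0.95), with replicates so far apart that a sizeable change in either direction would not have been detected. Mmp13 had 10.67 and 11.34 at 24 h and 11.31 and 10.14 at 6 h (0.28 ± 0.53, adjusted p = 0.77). In all 3 the times overlapped. Plaur, the urokinase receptor, had 9.02 and 9.67 at 24 h and 9.52 and 10.94 at 6 h, which also overlap (-0.89 ± 0.36, adjusted p = 0.12), while its other probe set was called lower, as was this one without 6 h replicate 1.

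**Figure D2:**
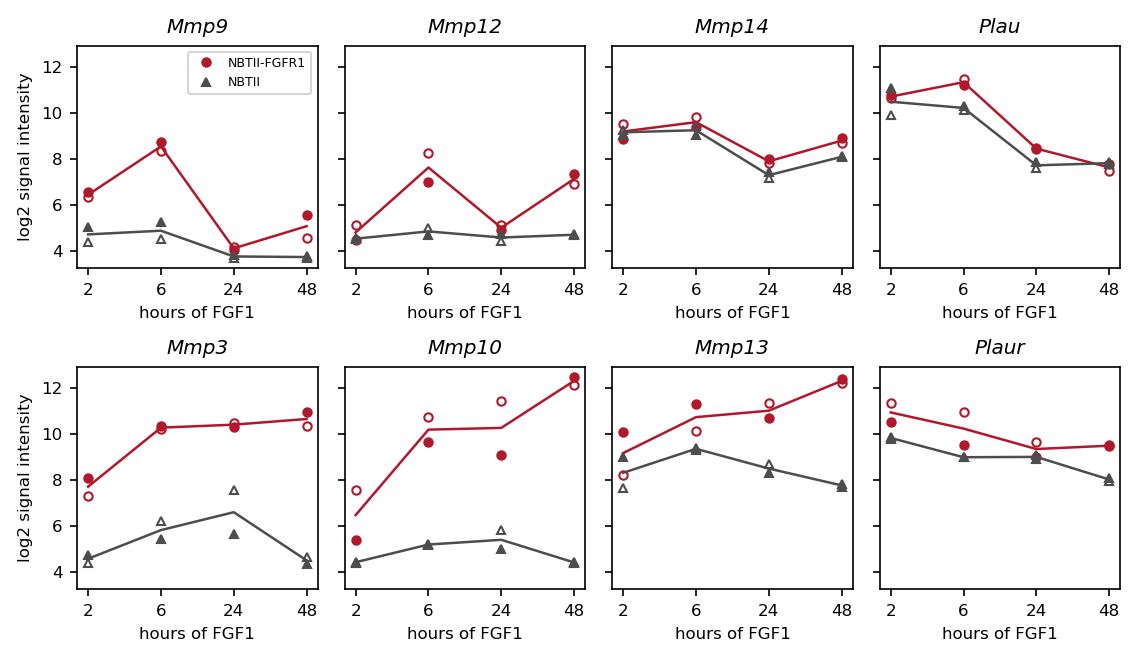
Log2 signal intensity of 8 genes of pericellular proteolysis at 2, 6, 24 and 48 h of FGF1 in NBTII-FGFR1 (red circles) and NBTII (grey triangles). Points are arrays (filled, replicate 1, and open, replicate 2), lines join the means, and all panels share 1 axis. Mmp9, Mmp12, Mmp14 and Plau drop between 6 h and 24 h in NBTII-FGFR1, whereas Mmp3, Mmp10 and Mmp13 read between 9.08 and 11.44 at these times.

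Keratin genes fell. Of 12 measured keratins 5 (41.7%) fell and 0 rose, and the median difference was -0.57. Krt15, a keratin of basal cells, had 5.22 and 4.59 at 24 h and 7.93 and 8.56 at 6 h (-3.34 ± 0.52, adjusted p = 0.0013). Krt5, a keratin that pairs with it in basal epithelium, had 11.37 and 10.42 at 24 h and 12.69 and 12.50 at 6 h (-1.70 ± 0.26, adjusted p = 0.0012). Krt8, a keratin of simple epithelium, had 8.29 and 8.05 at 24 h and 9.58 and 10.19 at 6 h (-1.72 ± 0.27, adjusted p = 0.0014). No array at 24 h reached the 6 h arrays in these genes, which for Krt15 the choice of genes required. Krt14 fell less (-0.68 ± 0.13) and kept levels of 13.21 and 12.87 at 24 h. Krt18, the partner of Krt8, had 4.95 and 4.85 at 24 h and 5.89 and 7.82 at 6 h (-1.96 ± 0.60, adjusted p = 0.046). Its call was lost in 9 of 16 fits without 1 array, up to an adjusted p of 0.36 without 6 h replicate 2.

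Junction genes fell as well, 10 of 20 (50.0%), with Tjp1 alone higher (0.58, not called without 24 h replicate 1 or 6 h replicate 2) and a median of -0.32. The count of falls was 6 without 24 h replicate 2 or without either 6 h array. Cdh1, which encodes E-cadherin of adherens junctions, had 8.23 and 7.75 at 24 h and 10.10 and 9.80 at 6 h, a 3.88-fold fall (-1.96 ± 0.23, adjusted p = 0.00025). Cldn4, a tight junction claudin, had 8.31 and 7.80 at 24 h and 9.80 and 9.49 at 6 h (-1.59 ± 0.25, adjusted p = 0.0014). In both genes the 2 times were well apart. F11r, the junctional adhesion molecule A gene, fell by 1.03 ± 0.18, and Jup, plakoglobin of desmosomes and adherens junctions, fell by 0.76 ± 0.14. Dsp, the desmoplakin that ties desmosomes to keratin filaments, had 10.14 and 10.09 at 24 h and 10.92 and 10.74 at 6 h (-0.71 ± 0.15, adjusted p = 0.008). Its adjusted p was 0.051 without 24 h replicate 2 and 0.054 without 6 h replicate 1. The hemidesmosome and laminin-332 list, 7 genes that anchor basal cells, held 1 gene that rose (Cd151, 0.44) and 1 that fell (Lama3, -1.19), with a median of -0.07. The Lama3 call was lost without 24 h replicate 2 (adjusted p = 0.052), and without either 24 h array or 6 h replicate 1 no hemidesmosome gene was called higher.

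Genes of squamous and urothelial differentiation moved the same way. Of 23 measured, 10 (43.5%) fell and 0 rose (median -0.54). The count was 5 without 24 h replicate 1 and 6 without 6 h replicate 2. Asprv1, a protease of the cornifying epidermis, had 8.46 and 9.74 at 24 h and 12.31 and 12.94 at 6 h (-3.52 ± 0.41, adjusted p = 0.00022). Aqp3, a water and glycerol channel of the basal epithelial membrane, had 3.98 and 5.01 at 24 h and 6.91 and 8.44 at 6 h (-3.18 ± 0.50, adjusted p = 0.0014). Its level in 24 h replicate 1 was under the lower quartile of that array, so this fall is a lower bound. Sprr1a, a cornified envelope precursor, had 7.2 and 7.90 at 24 h and 9.74 and 11.65 at 6 h (-3.14 ± 0.85, adjusted p = 0.027). The 6 h arrays of Sprr1a were almost 2 log2 units apart, and its adjusted p was 0.16 without 24 h replicate 1, 0.067 without 24 h replicate 2 and 0.21 without 6 h replicate 2. Emp1 (-0.97 ± 0.16), Sfn (-0.77 ± 0.14) and Anxa1 (-0.84 ± 0.16) fell less.

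Few mesenchymal genes were called. Of 33 measured, 1 (3.03%) rose and 2 (6.06%) fell, both close to or under the background shares, with a median of -0.14, and 0 fell without 24 h replicate 2 or 6 h replicate 1. Vim, the intermediate filament of mesenchymal cells, had 9.82 and 9.81 at 24 h and 7.36 and 8.30 at 6 h. The times did not overlap, but the difference of 1.98 ± 0.63 missed the threshold (adjusted p = 0.052). It was called in 6 of the 16 fits without 1 array, those without a 2 h array of either line or a 6 h array of NBTII, and its adjusted p reached 0.25 in the others. It was also called with the compared arrays only (0.015) and with the replicate block (0.0054). The same held with low probe sets left out (0.04) and with only the 8 arrays of 6 and 24 h (0.04). In NBTII, Vim was called higher in the same step (2.54 ± 0.63, adjusted p = 0.025 by limma). The count of mesenchymal rises was 1 to 3 with 1 array left out. Axl, a receptor kinase for Gas6, rose, with 9.47 and 9.45 at 24 h and 7.78 and 6.84 at 6 h (2.15 ± 0.26, adjusted p = 0.00026). Fn1, the fibronectin gene, had 8.67 and 8.01 at 24 h and 9.40 and 9.15 at 6 h (-0.93 ± 0.27, adjusted p = 0.035). The Fn1 call was lost without 24 h replicate 2 (adjusted p = 0.27), 6 h replicate 1 (0.16), 6 h replicate 2 (0.084) or either 48 h array (0.052). Acta2, the smooth muscle actin gene, was called lower (-0.72 ± 0.16) but not without either 24 h array or 6 h replicate 1 (adjusted p of 0.058 to 0.063). Snai1, a repressor of Cdh1, had 5.21 in both arrays at 24 h and 5.56 and 5.27 at 6 h (-0.20 ± 0.16, adjusted p = 0.43).

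Among cell adhesion and actin genes, falls were more frequent and rises less frequent than over all genes (5.44% lower and 10.1% higher). Of 51 genes of integrins, focal adhesion and actin, 7 (13.7%) fell and 2 (3.92%) rose, with a median of -0.10, and 4 fell without 24 h replicate 1 and 3 without 6 h replicate 2. Rhob had the largest fall (-1.67 ± 0.33), but it was not called without 24 h replicate 1 (-1.22) or 6 h replicate 2 (-1.43). Vasp, which extends actin filaments, fell by 0.77 ± 0.14 and Tpm4, a tropomyosin, by 0.61 ± 0.10. Zyx (-1.48), Pxn (-0.98) and Tln1 (-0.90), which encode zyxin, paxillin and talin of focal adhesions, were lower too. The 2 that rose were Lasp1 (0.96 ± 0.18) and Pdlim1 (0.92 ± 0.12), both actin-associated LIM proteins. Has2, the synthase of the matrix sugar hyaluronan, had 4.57 and 4.65 at 24 h and 6.38 and 8.18 at 6 h (-2.67 ± 0.38, adjusted p = 0.00078). Both 24 h arrays lay below both 6 h arrays, as the choice of this gene required, and the 6 h arrays were far apart.

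Some inhibitors and effectors of the receptor signal were lower at 24 h. Of 17 measured genes of FGF and ERK feedback, 5 (29.4%) fell and 0 rose (median -0.40), and 3 fell without 24 h replicate 1 and 2 without 6 h replicate 2. Spry2, a Sprouty inhibitor of receptor kinases, had 6.83 and 7.21 at 24 h and 7.88 and 7.93 at 6 h (-0.88 ± 0.13, adjusted p = 0.00089). Dusp6, the phosphatase of ERK, had 12.27 and 12.42 at 24 h and 12.61 and 12.54 at 6 h, a difference of -0.23 ± 0.12 that was not called (adjusted p = 0.25). Its levels were among the higher ones on the arrays at both times. Fgfr2, another FGF receptor, had 7.49 and 6.29 at 24 h and 7.65 and 7.23 at 6 h, which overlap (-0.55 ± 0.30, adjusted p = 0.26), although it was called lower without 24 h replicate 1.

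Some growth factor genes fell. Of 40 genes of the EGF receptor, its ligands and other growth factors, 9 (22.5%) fell and 1 rose, with a median of -0.20. The 9 became 3 without 24 h replicate 1, 5 without 24 h replicate 2 and 4 without 6 h replicate 2. Hbegf, the heparin-binding EGF-like growth factor gene, had 7.58 and 8.12 at 24 h and 9.26 and 10.04 at 6 h (-1.80 ± 0.31, adjusted p = 0.0023). Inhbb, an activin subunit, fell by 1.10 ± 0.19, and Efnb1, an ephrin, by 1.07 ± 0.21. Ereg, the epiregulin gene, had 7.41 and 7.6 at 24 h and 8.67 and 9.59 at 6 h (-1.63 ± 0.40, adjusted p = 0.016), with adjusted p of 0.1 without 24 h replicate 1, 0.056 without 24 h replicate 2 and 0.15 without 6 h replicate 2. Vegfb, a vascular growth factor, was the one that rose, with 7.12 and 7.24 at 24 h and 6.26 and 5.78 at 6 h (1.16 ± 0.15, adjusted p = 0.00042).

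Of 36 immediate-early genes, which growth factors switch on without new protein synthesis, 7 (19.4%) fell and 1 rose, with a median of -0.33. The count of falls was 0 without 24 h replicate 1, 0 without 6 h replicate 2 and 2 with the compared arrays only. Fosl1, an AP-1 subunit, had 10.44 and 10.57 at 24 h and 11.04 and 11.22 at 6 h (-0.63 ± 0.19, adjusted p = 0.041), and its call was lost in 8 of the 16 fits. Gadd45b, a growth arrest gene, was the one that rose, with 7.80 and 7.71 at 24 h and 6.62 and 6.89 at 6 h (1.0 ± 0.18, adjusted p = 0.0028). Cytokine, chemokine and NF-kB target genes gave 6 falls of 35 (17.1%), 0 rises and a median of -0.25, with 1 fall without 24 h replicate 1 and 3 without 6 h replicate 1. Tnfaip6, a hyaluronan-binding secreted protein, had 4.64 and 5.91 at 24 h and 7.18 and 7.83 at 6 h (-2.23 ± 0.47, adjusted p = 0.0072), a call lost without 24 h replicate 1 (0.094) or 6 h replicate 2 (0.071). Its other probe set was not called.

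DNA replication gave the largest share of rising genes among the 25 lists. Of 31 measured, 26 (83.9%) rose and 0 fell, with a median of 0.83, against 10.1% of all genes. Leaving out 1 array gave 19 to 28. Mcm2 and Mcm6 encode subunits of the helicase that opens origins. Mcm2 had 9.25 and 9.27 at 24 h and 8.09 and 8.20 at 6 h (1.12 ± 0.14, adjusted p = 0.00042), and Mcm6 had 9.45 and 9.38 at 24 h and 8.17 and 8.32 at 6 h (1.17 ± 0.15, adjusted p = 0.00048). These are rises of 2.17-fold and 2.25-fold, with replicates within 0.15 of each other. Pold2, a subunit of DNA polymerase delta, had 10.05 and 9.78 at 24 h and 8.96 and 8.48 at 6 h (1.2 ± 0.16, adjusted p = 0.00046). Rfc2, of the complex that loads the sliding clamp, had 10.61 and 10.46 at 24 h and 9.40 and 9.67 at 6 h (1.01 ± 0.12, adjusted p = 0.00025). Rpa1, of the single-strand binding complex, had 8.76 and 8.92 at 24 h and 7.85 and 7.67 at 6 h (1.08 ± 0.13, adjusted p = 0.0003). All 31 members had a positive difference, the lowest 0.31 and the highest 1.29 (Tyms, thymidylate synthase). Of 12 histone and chromatin assembly genes 4 (33.3%) rose and 0 fell (median 0.39), led by Asf1b, a histone chaperone, with 9.21 and 9.31 at 24 h and 7.70 and 8.42 at 6 h (1.2 ± 0.19, adjusted p = 0.0014).

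Mitosis genes rose with them. Of 25 measured, 17 (68.0%) rose and 0 fell, with a median of 0.65. The count was 8 without 24 h replicate 1, 10 without 6 h replicate 1 and 11 without 6 h replicate 2. Cdk1, the kinase that drives entry into mitosis, had 11 and 10.88 at 24 h and 9.85 and 10.04 at 6 h (1.0 ± 0.12, adjusted p = 0.00025). Ccnb2, a B-type cyclin that partners it, had 10 and 9.93 at 24 h and 8.76 and 9.13 at 6 h (1.02 ± 0.13, adjusted p = 0.00038). Neither gene overlapped between the times. Bub1b of the spindle checkpoint had 6.68 and 6.42 at 24 h and 5.27 and 5.53 at 6 h (1.15 ± 0.19, adjusted p = 0.0018). Aurkb, the Aurora B kinase gene, rose by 0.98 ± 0.13 and Kif2c, a kinesin that shortens microtubules at centromeres, by 0.98 ± 0.16. Cell cycle inhibitors and p53 targets were mixed, with 2 of 20 (10%) higher, 3 (15%) lower and a median of 0.09. Without any 1 of the 4 arrays 1 was higher, and 1 was lower without 24 h replicate 1 and 0 without 6 h replicate 2. Cdkn1a, the CDK inhibitor p21, had 7.18 and 8.03 at 24 h and 8.87 and 9.59 at 6 h (-1.62 ± 0.32, adjusted p = 0.0051), a call lost without 24 h replicate 1 (0.069) or 6 h replicate 2 (0.062). Cdkn2b, the CDK inhibitor p15, rose by 0.62 ± 0.12.

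The promoters of the replication and mitosis genes were read. RefSeq promoters of build GRCr8, 250 bases before to 50 after the start, were searched on both strands for short motifs known from cell cycle genes. E2F motifs (TTTCCCGC, TTTCGCGC, TTTGCCGC or TTTGGCGC, which can overlap) were in 12 of 30 replication promoters (40%), against 3.45% of the 9498 promoters of measured genes and 2.14% of all 33469. The cell cycle homology region, CHR (TTTGAA), was in 15 of 22 mitosis promoters (68.2%), against 12% of measured genes' promoters and 18.3% of all. CCAAT was in 18 of the 30 replication (60.0%) and 17 of the 22 mitosis promoters (77.3%), against 37.1% and 37.5%. These shares are over whole lists. Among called members only, E2F was in 12 of 25 replication and CHR in 10 of 14 mitosis promoters. CCAAT was in 17 of 25 and 10 of 14 of these. Whether called and uncalled members differ in their motifs was not tested. Printed below, 5′ to 3′ on the gene's strand and with the matches to the motif named in capitals, are called members with a match: Mcm2 (chr4:122918045-122918344, minus strand) and Mcm6 (chr13:42404303-42404602, minus strand) with overlapping E2F motifs, and Cdk1 (chr20:19265043-19265342, plus strand) and Ccnb2 (chr8:79981609-79981908, minus strand) with CHR. They were picked after the matches were seen. A match describes the letters in the window and is not a shown binding site.
Mcm2: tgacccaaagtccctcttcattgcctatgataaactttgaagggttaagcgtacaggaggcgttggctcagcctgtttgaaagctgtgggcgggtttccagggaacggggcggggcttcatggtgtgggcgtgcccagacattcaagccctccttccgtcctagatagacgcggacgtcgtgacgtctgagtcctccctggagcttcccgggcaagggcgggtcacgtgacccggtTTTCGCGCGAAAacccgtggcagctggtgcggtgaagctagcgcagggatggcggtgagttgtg
Mcm6: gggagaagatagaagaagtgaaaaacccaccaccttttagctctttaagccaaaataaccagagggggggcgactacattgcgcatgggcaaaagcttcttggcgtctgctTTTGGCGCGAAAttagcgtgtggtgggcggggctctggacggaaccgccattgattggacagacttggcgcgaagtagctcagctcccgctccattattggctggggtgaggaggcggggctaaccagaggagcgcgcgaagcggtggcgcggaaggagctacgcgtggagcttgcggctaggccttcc
Cdk1: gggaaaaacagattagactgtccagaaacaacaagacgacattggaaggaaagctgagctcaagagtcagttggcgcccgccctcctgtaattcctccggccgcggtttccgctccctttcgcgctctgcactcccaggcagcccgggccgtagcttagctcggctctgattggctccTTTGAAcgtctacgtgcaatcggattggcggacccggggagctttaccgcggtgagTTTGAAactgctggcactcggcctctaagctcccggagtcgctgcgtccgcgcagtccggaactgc
Ccnb2: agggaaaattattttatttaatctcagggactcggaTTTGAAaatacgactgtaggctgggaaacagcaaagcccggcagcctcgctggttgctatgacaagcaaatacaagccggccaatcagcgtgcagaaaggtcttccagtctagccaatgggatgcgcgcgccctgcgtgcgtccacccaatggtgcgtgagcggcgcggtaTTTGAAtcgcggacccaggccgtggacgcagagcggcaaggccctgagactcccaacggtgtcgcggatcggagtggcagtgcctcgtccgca
Counted in bases from the start, the matches begin at -14 and -10 in Mcm2 and at -139 and -135 in Mcm6, where the capitals hold an E2F motif on each strand. In Cdk1 they begin at -72 and -16, and in Ccnb2 at -214 and -43. The other lists searched differed. The AP-1 motif TGANTCA was in 8 of 26 promoters of pericellular proteolysis genes (30.8%), against 5.55% of measured genes' promoters and 7.33% of all. Yet it was in 1 of the 4 called ones with a promoter sequence, that of Mmp12 (chr8:12866402-12866701, plus strand). Mmp12 was picked by the promoter rule given below and is printed because it had a match. The other promoters picked by that rule had none.
Mmp12: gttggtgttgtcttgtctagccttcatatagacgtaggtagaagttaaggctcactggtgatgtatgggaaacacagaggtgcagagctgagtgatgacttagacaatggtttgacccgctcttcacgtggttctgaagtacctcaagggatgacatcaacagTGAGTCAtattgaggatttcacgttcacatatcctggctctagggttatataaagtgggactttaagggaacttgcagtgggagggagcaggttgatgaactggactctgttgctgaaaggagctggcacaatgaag
The E-box CACGTG was in 10 of 33 ribosome biogenesis promoters (30.3%), against 8.68% and 6.42%, and in 6 of the 23 called ones. The sterol regulatory element core TCACNCCAC was in 0 of 19 cholesterol promoters, against 1.13% and 1.12%, which says only that these letters are not in the windows.

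Ribosome biogenesis and nucleotide synthesis rose. Of 35 measured genes 22 (62.9%) rose and 1 fell, with a median of 0.49. The count was 7 without 24 h replicate 1, 12 without 6 h replicate 2 and 11 with the compared arrays only. Gart, an enzyme of purine synthesis, had 8.87 and 8.64 at 24 h and 7.36 and 7.73 at 6 h (1.21 ± 0.16, adjusted p = 0.00052). Ctps1, which makes CTP, had 9.96 and 9.83 at 24 h and 8.95 and 8.79 at 6 h (1.02 ± 0.15, adjusted p = 0.00077), while its other probe set was not called. Umps, of pyrimidine synthesis, rose by 0.91 ± 0.12, Noc2l, a nucleolar protein, by 0.96 ± 0.13, and Srm, spermidine synthase, by 0.87 ± 0.13. All 5 kept the times apart. The 1 that fell was Odc1 (-0.81), the first enzyme of polyamine synthesis.

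Cholesterol synthesis and uptake gave 15 rises of 21 (71.4%), 0 falls and a median of 1.10, the highest of the 25 lists. The count was 9 without 24 h replicate 2, 9 without 6 h replicate 1 and 9 with the compared arrays only. Fdft1, squalene synthase, had 8.55 and 9.78 at 24 h and 6.27 and 7.02 at 6 h, a 5.74-fold rise (2.52 ± 0.31, adjusted p = 0.00033). Cyp51, the lanosterol demethylase, had 10.15 and 10.95 at 24 h and 8.64 and 8.82 at 6 h (1.82 ± 0.21, adjusted p = 0.00022). Dhcr7, the last enzyme on the way to cholesterol, had 8.10 and 8.55 at 24 h and 6.64 and 6.78 at 6 h (1.61 ± 0.16, adjusted p = 7.6e-05). In these genes 24 h replicate 2 was the higher of the pair. The mean log2 level of the list was 8.32 in replicate 1 and 9.24 in replicate 2 at 24 h, against 7.55 and 7.78 at 6 h, so the replicates at 24 h differed by more than replicate 1 exceeded the 6 h arrays. At 2 h the mean was 8.56 and 8.48, so the rise started from a low point at 6 h. In NBTII the mean was 8.38 and 8.35 at 2 h, 7.71 and 7.73 at 6 h and 8.67 and 8.7 at 24 h. Msmo1 (1.51 ± 0.23) and Ebp (1.11 ± 0.15) rose as well.

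Fatty acid and lipid synthesis gave 9 rises of 31 (29.0%) and 2 falls (6.45%), with a median of 0.12, and 5 rises without 6 h replicate 2. The falls were 0 without 24 h replicate 1 or 6 h replicate 2. Elovl6, an elongase of fatty acids, had 7.44 and 7.84 at 24 h and 5.88 and 5.56 at 6 h (1.92 ± 0.19, adjusted p = 7.6e-05). Fasn, fatty acid synthase, had 10.06 and 10.09 at 24 h and 8.73 and 8.02 at 6 h (1.70 ± 0.29, adjusted p = 0.0021). Acaca, the acetyl-CoA carboxylase that supplies it, had 8.01 and 7.69 at 24 h and 6.76 and 6.14 at 6 h (1.40 ± 0.23, adjusted p = 0.0015). Each of these had both 24 h arrays above both 6 h arrays, which for Elovl6 the choice of genes required. Acsl3 (0.95 ± 0.17) and Acsl5 (0.77 ± 0.11), which attach fatty acids to coenzyme A, rose less. The mean log2 level of this list was 7.38 and 7.27 at 2 h, 7.02 and 6.97 at 6 h and 7.18 and 7.36 at 24 h.

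**Figure D3:**
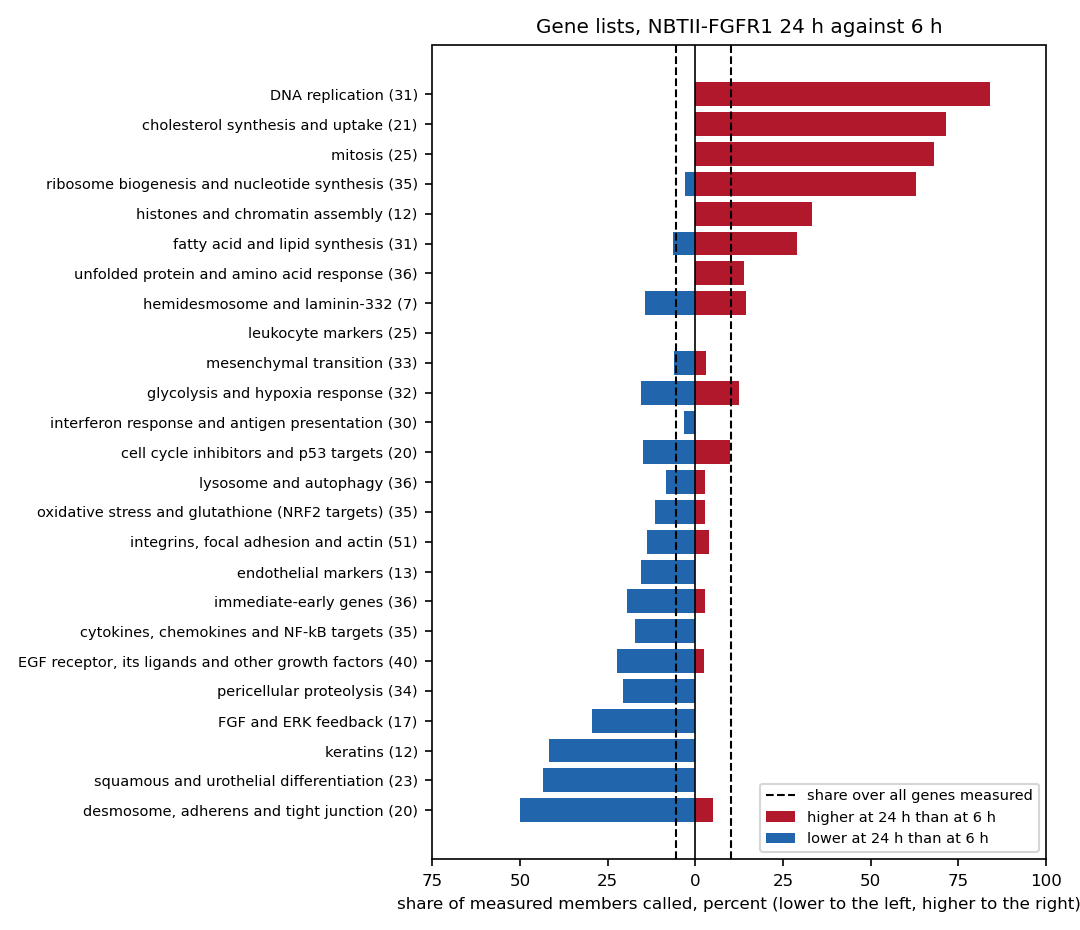
Share of the measured members of each of 25 gene lists that were called higher (red, to the right) or lower (blue, to the left) at 24 h than at 6 h in NBTII-FGFR1, in percent, with the number of measured genes in brackets. Dashed lines mark the shares over all genes, 10.1% higher and 5.44% lower. DNA replication (83.9%) lies highest among rising lists, and desmosome, adherens and tight junction (50.0%) among falling ones.

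The remaining lists held fewer calls or calls in both directions. Of 36 unfolded protein and amino acid response genes 5 (13.9%) rose and 0 fell (median 0.15), with 3 without 24 h replicate 2 or either 6 h array. Among them Cth, which makes cysteine, had 6.14 and 6.05 at 24 h and 4.62 and 4.49 at 6 h (1.54 ± 0.18, adjusted p = 0.00022). Glycolysis and hypoxia response genes split, with 4 of 32 (12.5%) higher, 5 (15.6%) lower and a median of 0.05. Without 24 h replicate 1 it was 1 higher and 2 lower, without 6 h replicate 2 it was 2 and 2, and without either of the other arrays 3 and 3. Ndrg1, a stress and differentiation gene, had 9.49 and 10.36 at 24 h and 12.39 and 12.19 at 6 h (-2.36 ± 0.28, adjusted p = 0.00025). Slc2a1, the glucose transporter GLUT1 gene, fell by 1.03 ± 0.16 and Bnip3, a mitophagy receptor, rose by 0.89 ± 0.13. Oxidative stress and glutathione genes had 1 of 35 higher and 4 (11.4%) lower (median -0.12), among them Txnrd1, thioredoxin reductase (-1.07 ± 0.17), and 2 were lower without 24 h replicate 2 or 6 h replicate 1. Lysosome and autophagy genes had 1 of 36 higher and 3 (8.33%) lower (median -0.07). The rise, in the acid lipase gene Lipa, was lost without either 24 h array or 6 h replicate 2, 2 genes were higher without 6 h replicate 1, and 1 was lower without 24 h replicate 1. Among the falls, Ctsc, cathepsin C, had 7.45 and 7.47 at 24 h and 9.17 and 8.71 at 6 h (-1.48 ± 0.19, adjusted p = 0.00041). Interferon response and antigen presentation had 1 of 30 lower (Bst2, -0.70 ± 0.18), 0 higher and a median of -0.12, and 0 were lower without either 24 h array or 6 h replicate 1.

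Several of the steepest changes lay outside any list. Among the rising genes, Prl8a7, a prolactin family hormone of the placenta, had 7.97 and 8.02 at 24 h and 5.99 and 4.14 at 6 h (2.92 ± 0.68, adjusted p = 0.012). One 6 h array was under its lower quartile, and the adjusted p was 0.067 without 24 h replicate 1, 0.06 without 24 h replicate 2 and 0.13 without 6 h replicate 2. Cyp3a9, a cytochrome P450 of steroid and drug oxidation, had 10.51 and 10.73 at 24 h and 8.39 and 8.35 at 6 h (2.25 ± 0.15, adjusted p = 5.4e-06). Lhfpl6, a tetraspan membrane protein, had 8.62 and 8.52 at 24 h and 5.99 and 6.19 at 6 h (2.48 ± 0.20, adjusted p = 2e-05). Both had tight replicates. Dab2, an endocytic adaptor, had 8.39 and 8.81 at 24 h and 6.73 and 5.97 at 6 h (2.25 ± 0.37, adjusted p = 0.0017). Efhd1, a calcium-binding protein of mitochondria, had 7.88 and 9.50 at 24 h and 6.33 and 6.59 at 6 h (2.23 ± 0.34, adjusted p = 0.0012). Cdca7l and Cdca7, related nuclear proteins tied to MYC and cell division, rose by 2.03 ± 0.20 and 2.01 ± 0.39, the Cdca7 call being lost without 6 h replicate 2 (adjusted p = 0.054). Arrb1, a beta-arrestin, rose by 1.99 ± 0.23 and Slc38a1, a neutral amino acid transporter, by 1.92 ± 0.27.

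Among the falling genes, Plet1, a surface protein of placenta and epithelial progenitors, had 4.22 and 4.64 at 24 h and 8.42 and 8.18 at 6 h (-3.87 ± 0.57, adjusted p = 0.0009), a lower bound since 1 of the 24 h arrays was under its lower quartile. Cyp27b1, the hydroxylase that activates vitamin D, had 4.99 and 5.2 at 24 h and 7.17 and 8.41 at 6 h (-2.69 ± 0.40, adjusted p = 0.001). Rhof, a small GTPase of filopodia, had 5.07 and 6.01 at 24 h and 7.46 and 9.32 at 6 h (-2.85 ± 0.54, adjusted p = 0.0038), and missed the threshold without 24 h replicate 1 (adjusted p = 0.05). Mxd1, a MAX partner that opposes MYC, had 7.28 and 8.79 at 24 h and 10.09 and 11.28 at 6 h (-2.65 ± 0.51, adjusted p = 0.0043). Its adjusted p was 0.059 without 24 h replicate 1 and 0.056 without 6 h replicate 2. All 4 genes had 24 h arrays below 6 h arrays, as the choice of these genes required.

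The same step in the parental NBTII line, which shares no array with it, went largely the same way. There 1257 probe sets (7.92%) changed, 593 higher and 664 lower, and over genes 466 (4.48%) were higher and 473 (4.54%) lower. The NBTII count was 521 and 393 without 24 h replicate 1 and 2, and 430 and 596 without 6 h replicate 1 and 2. Of the probe sets called in NBTII-FGFR1, 829 were also called in NBTII in the same direction, which is 37.8% of the NBTII-FGFR1 calls and 66.0% of the NBTII calls, and 0 in the opposite one. The shared count lay between 317 and 411 without any 1 of the 4 NBTII arrays and was 501 without NBTII-FGFR1 24 h replicate 1, and at most 3 were opposite in any setting. Of the 2192 called in NBTII-FGFR1, 2005 (91.5%) had the same sign in NBTII. The share with the same sign over all probe sets was not counted, so this percentage has no background beside it. Across the 15866 probe sets the differences correlated at r = 0.67 (Spearman 0.48), a description over probe sets that share a spread estimate and are not independent. Arg1 was at 5.51 and 5.58 at 24 h and 9.32 and 8.92 at 6 h in NBTII (-3.57), and Cdh1 at 8.42 and 7.94 at 24 h and 10.24 and 9.81 at 6 h (-1.84), so both fell there too. Replication genes rose in NBTII as well, 22 of 31, of which 19 rose in both lines, and so did 13 of 21 cholesterol genes, 12 of them in both.

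**Figure D4:**
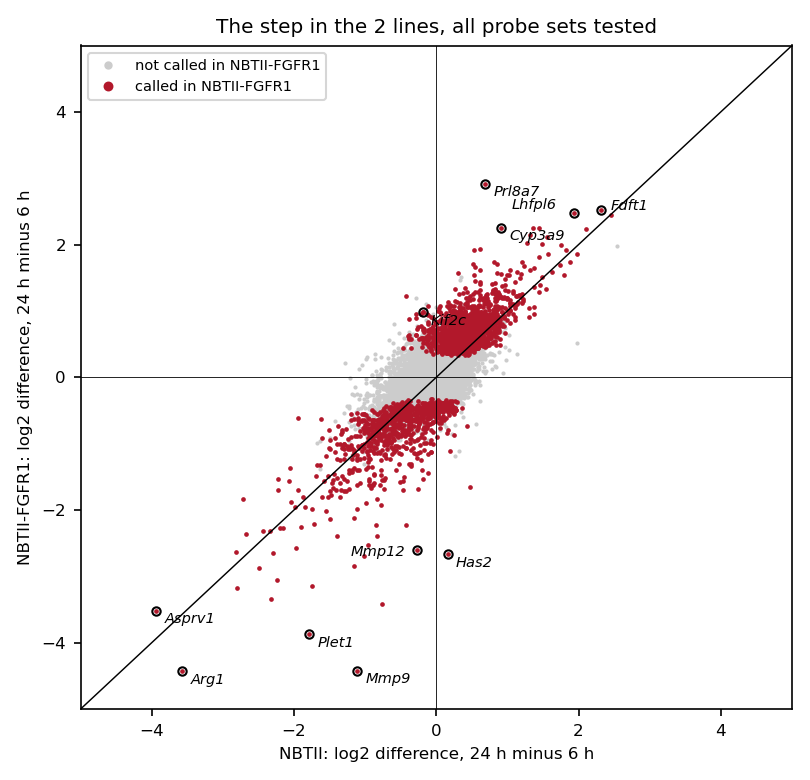
Log2 difference of 24 h minus 6 h in NBTII-FGFR1 (vertical) against the same in NBTII (horizontal), 1 point for each of 15866 probe sets, red where called in NBTII-FGFR1. The diagonal marks equal steps. Most red points lie in the lower left and upper right, and Mmp9, Mmp12 and Has2 lie well below the diagonal.

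The difference between the lines in the step was called for 1 probe set (0.0063%), while 1624 (10.2%) had an unadjusted p under 0.05. The 1 was Mmp9, where NBTII had 3.83 and 3.74 at 24 h and 5.27 and 4.53 at 6 h (-1.11 ± 0.30), and the NBTII-FGFR1 step minus the NBTII step was -3.31 on the log2 scale (adjusted p = 0.036). Both lines were under the lower quartile at 24 h, so the size of this difference is neither exact nor a bound, and the lines differed chiefly in their 6 h levels. That call was lost in 12 of 24 other settings, with adjusted p from 0.0017 to 0.28: among others without either 24 h array of NBTII-FGFR1 (0.16 and 0.21), either 24 h array of NBTII (0.27 and 0.28), either 48 h array of NBTII (0.1), either 2 h array of NBTII-FGFR1 (0.054), NBTII-FGFR1 6 h replicate 2 (0.069) or NBTII 6 h replicate 2 (0.13). Without NBTII-FGFR1 6 h replicate 1 the count of line differences was 18. Mmp12 (-2.33, unadjusted p = 0.00016) and Has2 (-2.83, unadjusted p = 0.00014) had large line differences that were not called after adjustment. In NBTII both were near the lower end at either time, Mmp12 at 4.77 and 4.44 at 24 h and 4.71 and 5.03 at 6 h, and Has2 at 4.64 and 4.73 at 24 h and 4.61 and 4.44 at 6 h. Cyp3a9 rose in both lines and by more in NBTII-FGFR1 (difference 1.34, unadjusted p = 2.5e-05), again short of the threshold.

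Mitosis genes stood at different counts in the lines. By limma 17 of 25 rose in NBTII-FGFR1 (median 0.65), against 0 higher and 1 lower in NBTII (median -0.08), where 3 were higher and 4 lower at an unadjusted p under 0.05. Of the 25 line differences 17 had an unadjusted p under 0.05, against 10.2% of all probe sets, and 0 passed adjustment. Kif2c had 8.24 and 8.14 at 24 h and 8.33 and 8.42 at 6 h in NBTII (-0.19), and Cdk1 had 10.68 and 10.86 at 24 h and 10.45 and 10.57 at 6 h (0.26). The mean log2 level of the mitosis list in NBTII-FGFR1 was 8.63 and 8.57 at 2 h, 8.07 and 8.24 at 6 h, 8.83 and 8.74 at 24 h and 7.97 and 8.08 at 48 h. In NBTII it was 8.76 and 8.75 at 6 h and 8.76 and 8.61 at 24 h. The step in NBTII-FGFR1 thus ran from a low point at 6 h to a high point at 24 h, and at 48 h the level was again near that of 6 h. Replication genes had means of 8.90 and 8.76 at 2 h, 8.07 and 8.25 at 6 h, 8.99 and 8.96 at 24 h and 8.03 and 8.17 at 48 h in NBTII-FGFR1, while NBTII was at 8.82 and 8.72 at 48 h. The keratin mean in NBTII-FGFR1 was 7.05 and 7.46 at 2 h, 7.06 and 7.38 at 6 h, 6.39 and 6.16 at 24 h and 6.06 and 6.01 at 48 h, so it was no higher at 48 h than at 24 h.

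**Figure D5:**
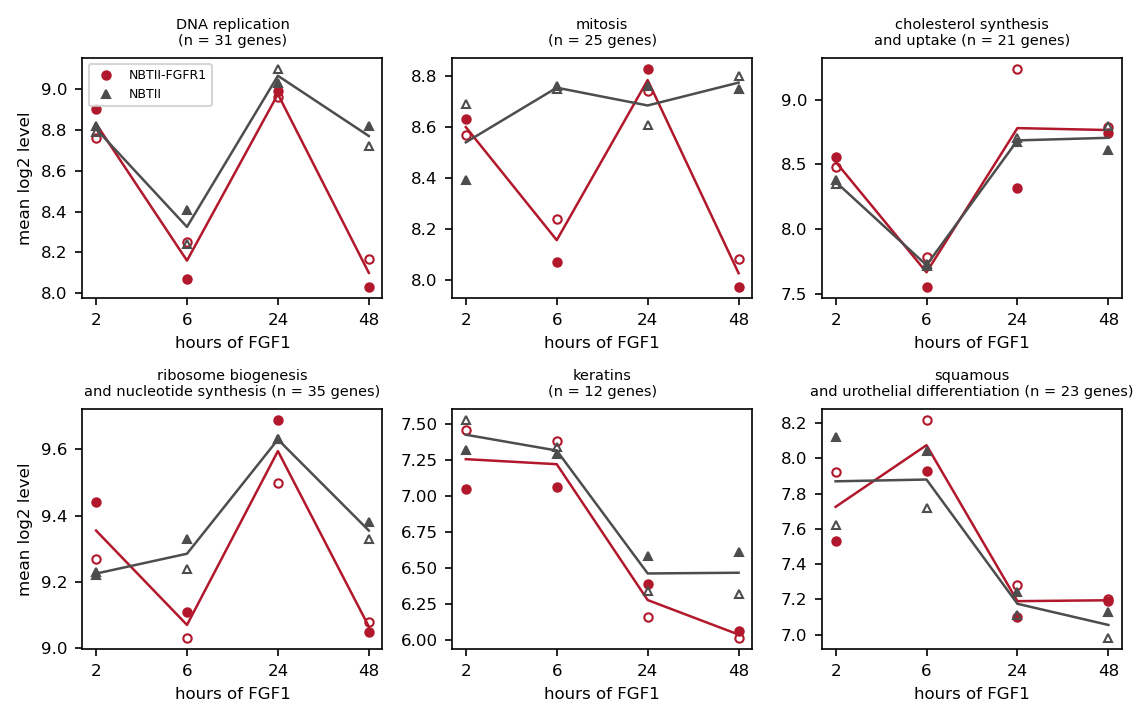
Mean log2 level of 6 gene lists at 2, 6, 24 and 48 h of FGF1 in NBTII-FGFR1 (red circles) and NBTII (grey triangles), with points for arrays (filled, replicate 1, and open, replicate 2), lines through the means and a separate vertical scale in each panel. Mitosis genes of NBTII-FGFR1 are low at 6 h and 48 h and high at 24 h, and the keratin mean is lower at 24 h than at 6 h in both lines.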

How the data were processed

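The values are the authors' RMA log2 intensities from Affymetrix arrays, as the submitters' processing notes name them, used as deposited. No version of RMA is given in the sources used here. Of 15923 probe sets, 57 controls were left out and 15866 tested with no filter on low values. By the platform annotation 12783 carry 1 symbol (12748 found by gene ID in RefSeq GRCr8), 312 several and 2771 none, which gives 10411 genes.

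Groups came from the sample titles. Means of 8 groups of line and time (16 arrays) were fitted in R 4.3.3 using limma 3.58.1 (8 residual and 5.54 prior degrees of freedom), which gives the step in each line and their difference, with two-sided p-values adjusted by Benjamini-Hochberg and a threshold of 0.05. The fit was tested on simulated data. Tables used Python 3.11.15, pandas 2.3.3 and numpy 2.4.6, and figures matplotlib 3.10.9.

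The members and the 25 lists were chosen with earlier results of these data known. Named were 18 listed genes, the 12 highest and 12 lowest differences among called genes whose arrays did not overlap, up to 6 each way for the line difference, and up to 5 members a list by p, passing over probe sets with no or several symbols and symbols that begin with LOC or RGD. Other members are named only to identify the genes behind small counts. The promoter rule (the 2 called members with the smallest p of 3 lists) gave 5 promoters without a match, which are not printed, and that of Mmp12. Mcm2, Mcm6, Cdk1 and Ccnb2 were added afterwards. Alternatives were other arrays in the fit, a replicate block, normalization, eBayes settings, array weights, a filter on low probe sets and each array left out.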

Additional observations from a re-analysis of the deposited data

Results flagged for a closer look

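Mmp9 is set apart because its step differed between the lines by a test of the difference itself: the NBTII-FGFR1 step minus the NBTII step was -3.31 on the log2 scale (adjusted p = 0.036 by limma). Its log2 levels were 4.07 and 4.20 at 24 h and 8.75 and 8.35 at 6 h in NBTII-FGFR1, against 3.83 and 3.74 at 24 h and 5.27 and 4.53 at 6 h in NBTII. Over the 24 other settings that tested this probe set the difference was -3.68 to -2.94 and was called in 12. As the 24 h levels of both lines were under the lower quartile and not shown to exceed background, these sizes are neither exact nor bounds. Leaving out either replicate of a 2 h or 48 h group gave the same fit. The 24 settings are therefore not all separate checks.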

How the results depend on the processing

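The count of NBTII-FGFR1 calls was 2192 and lay between 1924 and 2418 in the alternatives that left out no single array, except for 1312 with only the arrays compared. It was 919 to 2741 with 1 array left out, highest without either NBTII-FGFR1 2 h array. The NBTII count of 1257 was 1939 with array weights and 393 to 1610 with 1 array left out. The line by step count of 1 became 0 with array weights, 0 with eBayes trend and robust, 0 with low probe sets left out and 2 with the replicate block, and lay between 0 and 18 with 1 array left out. The filter on low probe sets removed Mmp9 itself, so the 0 there is not a call that was tested and lost. With the replicate block, a single term for replicate number shared by all groups of both lines, 2418 probe sets were called in NBTII-FGFR1 and 1431 in NBTII. Same-numbered arrays of 24 h and 6 h deviated together at r = 0.35 in NBTII-FGFR1 and 0.22 in NBTII, but with 2 pairs the numbers are not shown to pair the cultures. Of 124 named genes called in the step, 75 were called in all 16 fits without 1 array. Over all alternatives, 3536 values of named genes stayed on the same side of the threshold, 204 lost their call and 32 gained one. Some genes that were not called changed sign. With 1 array left out, the difference ran from -1.04 to 0.55 in Fgfr1 and from -1.1 to 1.25 in Mmp10. Since leaving out either replicate of a group outside a comparison gave the same result for it, the 16 fits are not 16 separate checks. The cause of the moved counts was not tested, beyond the fewer arrays in some fits. For probe sets under the lower quartile, signal over background limits the size of a fall that can be read.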
